A study of Mus musculus with 4 samples.

Results

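The Dpysl family comprises 5 genes that were chosen here by name, Dpysl2, Dpysl3, Dpysl4, Dpysl5 and Crmp1, of 31053 genes in the deposited matrices. Their products, the collapsin response mediator proteins (CRMPs), are cytosolic phosphoproteins that bind tubulin and take part in the extension and turning of axons. Semaphorin 3A, acting through neuropilin and plexin receptors, leads to their phosphorylation by Cdk5 and Gsk3b, which loosens their hold on tubulin and lets the growth cone retract. The family was named from its likeness to the enzyme dihydropyrimidinase and to Unc-33 of the worm. In the adult rodent brain Dpysl2 is known from oligodendrocytes as well as neurons, while Dpysl3 and Dpysl5 are known from migrating neuroblasts. The family was taken up with levels of its members in these libraries known, so every value below is a description and no test is attached to it.

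Dpysl2 (ENSMUSG00000022048), which encodes CRMP2, lies on the minus strand at chr14:66802864-66868688 in GRCm38. Dpysl4 (ENSMUSG00000025478) lies on the plus strand at chr7:139086001-139102704. Dpysl5 (ENSMUSG00000029168) at chr5:30711564-30799375 and Crmp1 (ENSMUSG00000029121) at chr5:37241940-37292133 are both on the plus strand of chromosome 5. Dpysl3 (ENSMUSG00000024501) is on the minus strand of chromosome 18. All are annotated as protein coding in GENCODE vM21. Dpysl5 overlaps the annotated gene Gm42764 on the same strand, so reads in the shared stretch could be assigned to either gene or to neither. Crmp1 overlaps Evc on the other strand, and whether the counting used the strand is not given in the sources used here. UMIs were counted at the 3′ end and were not divided by transcript length, so a comparison between 2 members is one of captured molecules.

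The libraries came from male C57/BL6 mice of 8 weeks, either sham operated or taken on day 1, 3 or 7 after transient middle cerebral artery occlusion (tMCAO), a filament model of ischaemic stroke followed by reperfusion. The hemisphere on the operated side was dissociated with papain, cleared of myelin on Percoll and loaded for droplet sequencing, in which a unique molecular identifier (UMI) marks each captured transcript at its 3′ end. There was 1 library per group, so the spread between animals could not be measured, and how many mice each library pooled is not given in the sources used here. The day on which the sham tissue was taken is not given either, and every ratio to sham below rests on that same single library. Differences between groups therefore compare 4 libraries, and an animal, a preparation or a surgery that differed between them cannot be told apart from the time after tMCAO.

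The matrices held 11744 cells for sham, 17780 for day 1, 11983 for day 3 and 17922 for day 7. Of these, cells with 200 to 3000 detected genes whose mitochondrial share was 10% or less were used, which left 7562, 13376, 9378 and 14044 cells with median depths of 3731.5, 2812.5, 2896.5 and 2507.5 UMIs. A kept cell was placed in 1 of 20 classes when at least 3 markers of that class were detected and its marker score was at least 2 times that of the next class, and a class name below stands for the cells that passed this gate. Between 89.8% and 91.9% of the kept cells in a library were placed. The oligodendrocyte, neuroblast and mature neuron classes each had 6 of their own markers among their 10 leading genes. Oxt, a hypothalamic peptide gene, led the mature neuron class, and the progenitor class was led in part by Neu4 and Gpr17, which mark committed precursors. Levels are given as UMIs per 1000000 UMIs of a class in a library (CPM), with exact Poisson 95% intervals in parentheses, and ratios carry exact conditional intervals. All intervals cover counting error only and not the difference between animals, and levels were read only from classes with at least 50 cells.

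Dpysl5 and Crmp1, which both lie on chromosome 5, had the highest Pearson's r of the member pairs, 0.90 over 38 combinations of class and library. By rank they were not first, with a rho of 0.50 against 0.54 for Dpysl2 with Crmp1. The stretch before their annotated starts is shown, in lower case and on the plus strand, with matches to the letters GGGCGG on either strand in capitals. The sequences are from RefSeq, build GRCm38.p6. They cover chr5:30711314-30711563 for Dpysl5, chr5:37241808-37241939 for the first start of Crmp1 and chr5:37245514-37245763 for its second start.
Dpysl5: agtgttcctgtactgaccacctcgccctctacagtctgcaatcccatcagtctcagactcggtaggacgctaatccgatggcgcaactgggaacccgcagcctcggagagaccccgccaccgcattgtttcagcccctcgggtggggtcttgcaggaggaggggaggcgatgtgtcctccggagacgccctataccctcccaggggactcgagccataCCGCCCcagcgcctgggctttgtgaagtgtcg
Crmp1, first start: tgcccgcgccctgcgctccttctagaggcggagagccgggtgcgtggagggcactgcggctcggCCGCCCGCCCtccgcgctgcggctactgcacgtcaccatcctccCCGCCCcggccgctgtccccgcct
Crmp1, second start: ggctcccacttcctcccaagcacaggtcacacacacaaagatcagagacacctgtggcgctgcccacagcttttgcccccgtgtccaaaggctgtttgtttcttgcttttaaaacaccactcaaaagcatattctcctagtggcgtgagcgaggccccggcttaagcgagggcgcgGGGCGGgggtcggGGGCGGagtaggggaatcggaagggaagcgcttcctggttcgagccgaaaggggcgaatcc
The Dpysl5 window held 1 match in 250 bases, 62.8% GC and 17 CG sites. The first Crmp1 window of 250 bases held 5 matches, 3 of them in the 132 bases printed, with 75.6% GC and 30 CG sites, and the second held 2 matches, 59.6% GC and 16 CG sites. Over 32851 windows of the same length the median was 52.4% GC and 6 CG sites, and 32.7% of windows held GGGCGG. All 3 windows thus lay above the median of promoters in GC and CG content. The letters CAGCTG were present on either strand in 13% of windows. CAGATG was present in 14.4% of windows and TATAAA in 12.4%, and none of these was found in the 3 windows shown. A match is a match of letters in this window and not a measured binding site.

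Which brain cells carried each member, and in what proportions, was asked first. Dpysl2 was the member found in most classes, and in oligodendrocytes and pericytes it was nearly the whole family. Dpysl3 was highest in neuroblasts, was also found in progenitors and vascular smooth muscle, and was close to 0 in oligodendrocytes. Crmp1, Dpysl4 and Dpysl5 were found in neuroblasts, mature neurons and, for Crmp1 and Dpysl4, progenitors.

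**Figure D1:**
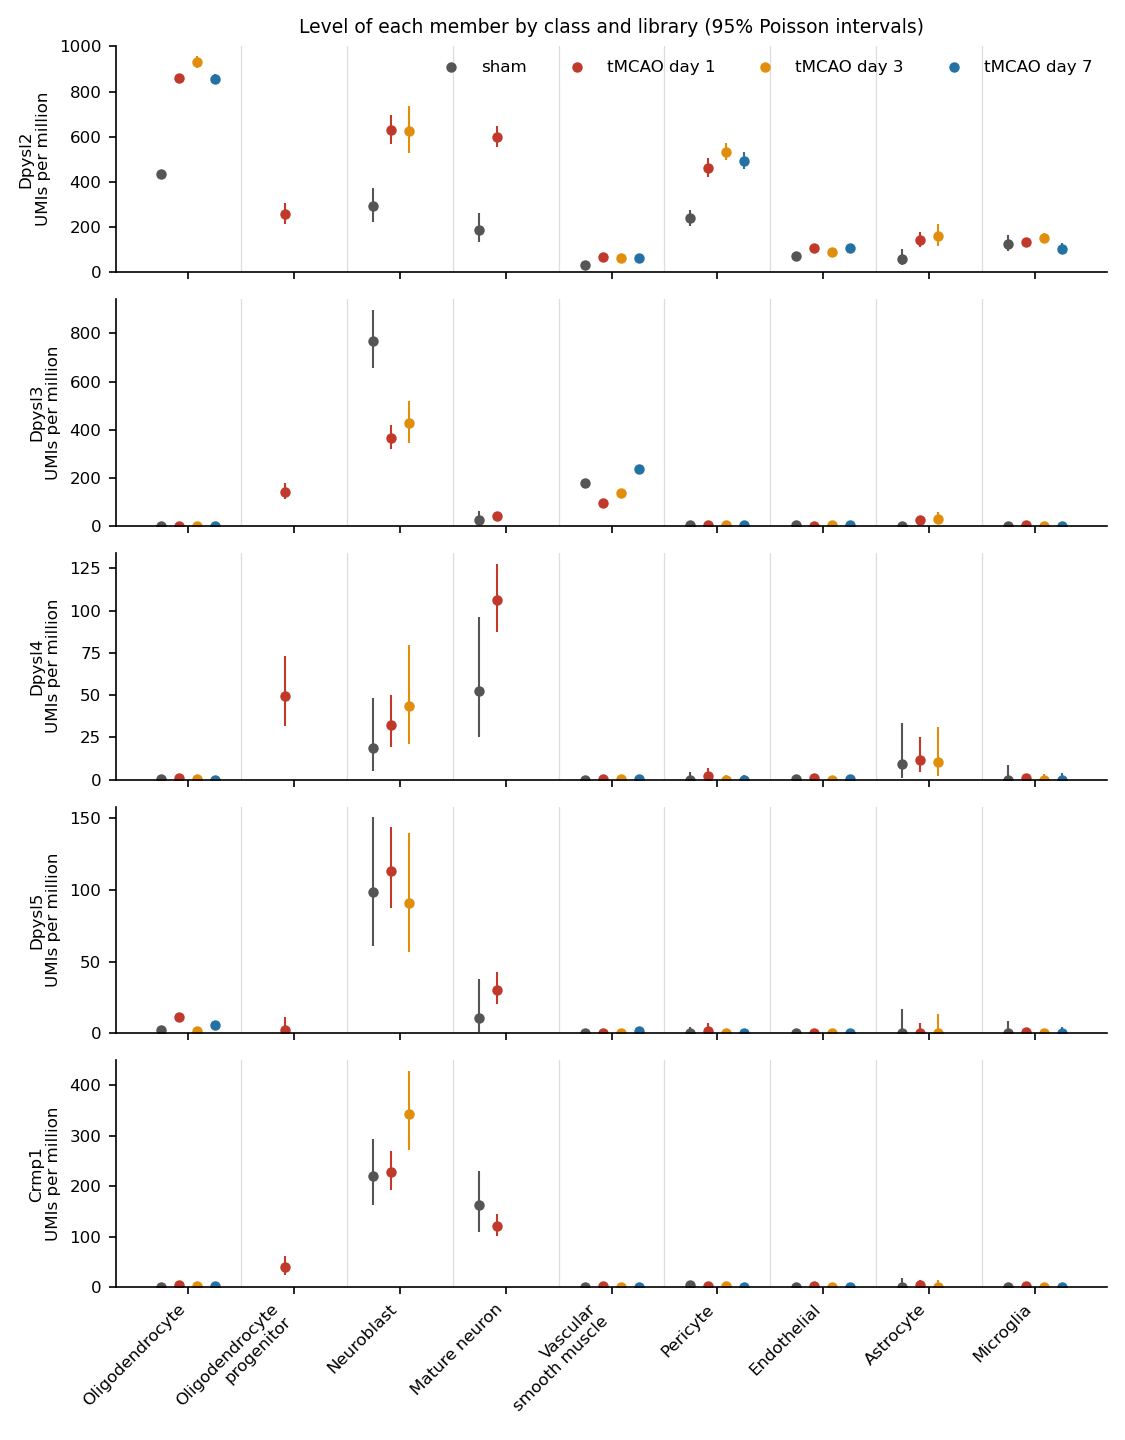
Level of each Dpysl family member (y axis, CPM) in the marker-gated classes with at least 50 cells (x axis), with 1 point per library and exact Poisson 95% intervals. Dpysl2 is highest in oligodendrocytes, at 434 CPM in sham and 857 to 931 CPM after tMCAO, while Dpysl3 peaks in neuroblasts at 770 CPM in sham.

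In the day 1 library, where the most classes could be read, Dpysl2 stood at 858 (842 to 875) CPM in oligodendrocytes and was lower in every other class with at least 50 cells. Neuroblasts with 629 (567 to 696) CPM and mature neurons with 600 (555 to 649) CPM followed, and these neighbours were not separated, with a ratio of 1.05 (0.919 to 1.19). Pericytes held 461 (420 to 505) CPM, and ependymal cells with 297 (259 to 339) CPM and progenitors with 257 (214 to 306) CPM had overlapping intervals. Astrocytes at 141 CPM and microglia at 135 CPM overlapped too, as did endothelial cells at 106 CPM and fibroblasts at 102 CPM. Vascular smooth muscle at 68.8 CPM and border macrophages at 64.1 CPM were lower and not separated from each other. The choroid plexus, with 8.35 CPM from 14 UMIs, was the lowest of the classes read on day 1.

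In sham fewer classes had enough cells to be read. Oligodendrocytes at 434 (417 to 452) CPM were highest. Neuroblasts at 291 (223 to 373), pericytes at 238 (205 to 274) and mature neurons at 188 (132 to 260) CPM formed a series in which each neighbour overlapped the next. The order within this series depended on the limit on genes, since neuroblasts held 1.55 (1.01 to 2.40) times the neuron level under it and 0.768 (0.618 to 0.947) times with it lifted. Microglia at 126, endothelial cells at 70.9, astrocytes at 60.2 and vascular smooth muscle at 30.8 CPM were lower. In blood cells Dpysl2 was at 16.8 CPM in erythrocytes of sham, 12.5 CPM in neutrophils of day 3 and 47.6 CPM in T or NK cells of day 7. The erythrocyte and neutrophil values were taken as a background level. The T or NK value was not, since T cells are known to express Dpysl2. The subtraction of immune background listed under processing below was different. It pooled neutrophils, T or NK cells and B cells, and left out erythrocytes. The part of free RNA in any of these values was not tested.

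Over whole libraries, Dpysl2 had 137 CPM in sham and 345, 257 and 237 CPM on days 1, 3 and 7, and Dpysl3 had 36.8, 18.3, 25.4 and 50.5 CPM. Crmp1 had 3.98, 9.41, 3.80 and 2.06 CPM. These sums can move with the mix of classes. Oligodendrocytes made up 10.1% of the kept cells in sham, 17.6% on day 1, 9.15% on day 3 and 8.89% on day 7, and the levels below are given within classes. In a class sum, fewer molecules per cell and fewer expressing cells cannot be told apart.

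In oligodendrocytes, the myelinating glia, Dpysl2 was about 2 times as high in each tMCAO library as in sham. It had 2453 UMIs in 767 sham cells, 10539 in 2351 cells on day 1, 5081 in 858 cells on day 3 and 6182 in 1249 cells on day 7. The levels were 434 (417 to 452), 858 (842 to 875), 931 (906 to 957) and 857 (836 to 879) CPM. No tMCAO interval overlapped that of sham. Set against sham, these are ratios of 1.97 (1.89 to 2.06), 2.14 (2.04 to 2.25) and 1.97 (1.88 to 2.07) for days 1, 3 and 7. Among the tMCAO libraries the differences were small, at 1.09 (1.05 to 1.12) for day 3 over day 1 and 0.999 (0.968 to 1.03) for day 7 over day 1. A gene was counted as higher when its level plus 10 CPM was at least 1.5 times that of sham plus 10 CPM, among genes with at least 20 CPM in either library. By this measure 1 of 1 member with enough counts was higher on each day, beside 5.65%, 2.17% and 11.8% of all genes higher and 4.95%, 0.695% and 3.48% lower on days 1, 3 and 7. Nothing is read from that count, since the members were chosen with these contrasts known.

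**Figure D2:**
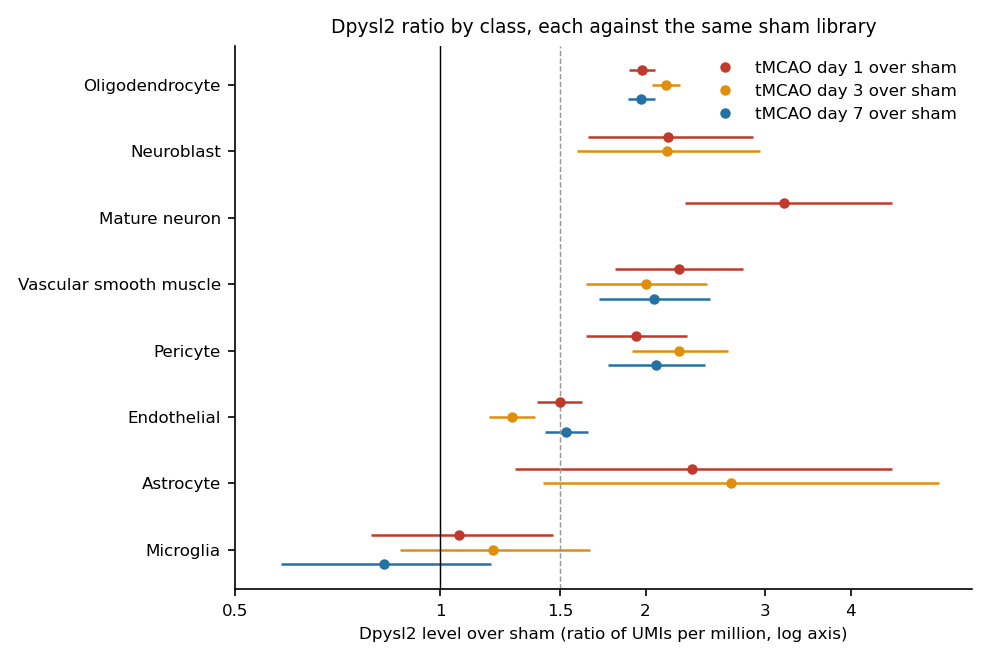
Ratio of the Dpysl2 level on day 1, 3 or 7 to that in sham (x axis, log scale) in 8 classes (y axis), with exact conditional 95% intervals and lines at ratios of 1 and 1.5. The oligodendrocyte ratios sit at 1.97, 2.14 and 1.97, and those of microglia between 0.827 and 1.19 with intervals that include 1.

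The spread of Dpysl2 over single oligodendrocytes was read next. Each oligodendrocyte was thinned to 1000 UMIs, so that depth did not set detection, which left out 17, 5, 3 and 57 shallower cells of sham and days 1, 3 and 7. After this, 36.4% (32.9 to 40.0) of sham cells held a Dpysl2 UMI, against 56.4% (54.3 to 58.4), 58.0% (54.6 to 61.3) and 54.9% (52.1 to 57.8) in the tMCAO libraries, all by exact Clopper-Pearson intervals. Cells with 3 or more thinned UMIs made up 1.47% in sham and 7.46%, 6.78% and 7.30% after tMCAO. The share with exactly 1 UMI was nearly level, at 28.8%, 32.9%, 34.0% and 33.8%, while the share with exactly 2 was 6.13%, 16.0%, 17.2% and 13.8%. The tMCAO libraries thus held fewer cells with none and more cells with several molecules. Without thinning the shares were 90.6%, 95.3%, 95.6% and 94.3%, where detection was close to complete at median depths of 7895, 4938, 6655.5 and 6251 UMIs. As background, 0 of 50 thinned neutrophils of day 3, which allows a share of up to 6%, held a Dpysl2 UMI.

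**Figure D3:**
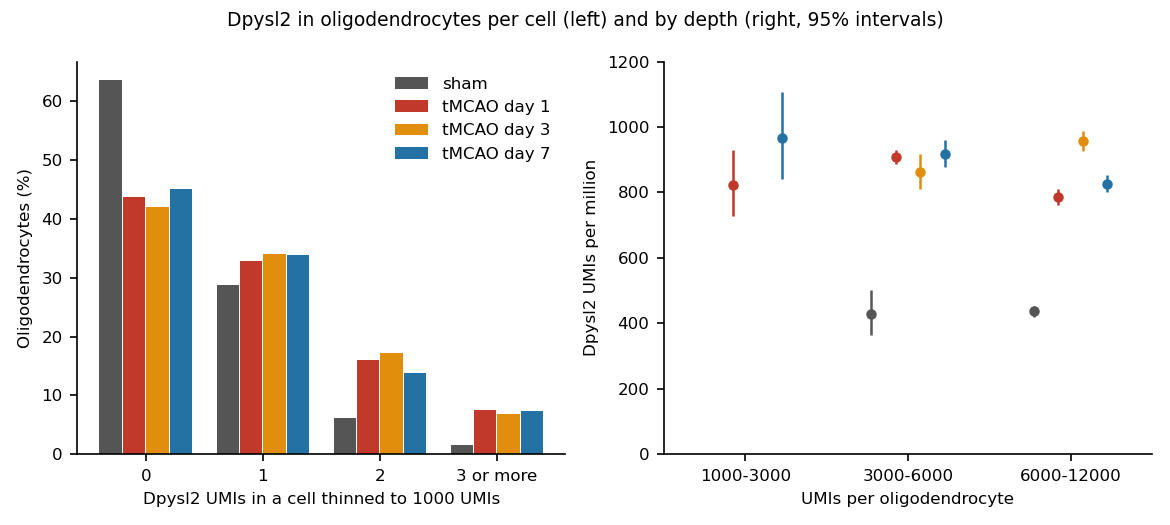
Left, percent of oligodendrocytes (y axis) by the number of Dpysl2 UMIs after thinning each cell to 1000 UMIs (x axis: 0, 1, 2, 3 or more), with 1 bar per library. Right, Dpysl2 level (CPM) in oligodendrocytes grouped by their depth, with Poisson 95% intervals. In sham 63.6% of cells held none, against 42.0% to 45.1% after tMCAO, and the sham level stays near 430 CPM in both deeper groups.

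The difference was of like size among cells of like depth. Among cells of 3000 to 6000 UMIs the levels were 428, 909, 863 and 918 CPM in sham and on days 1, 3 and 7, and among cells of 6000 to 12000 UMIs they were 436, 785, 957 and 827 CPM. The sham level was lower in both groups. With no upper limit on genes per cell the class grew to 1508, 2787, 1080 and 1951 cells and the ratios were 1.92 (1.86 to 1.97), 2.15 (2.08 to 2.22) and 1.86 (1.81 to 1.92).

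Dpysl5, which encodes CRMP5, was a minor member in oligodendrocytes, with 13, 138, 10 and 44 UMIs in sham and on days 1, 3 and 7. Its levels in that order were 2.30 (1.23 to 3.94), 11.2 (9.44 to 13.3), 1.83 (0.879 to 3.37) and 6.10 (4.43 to 8.19) CPM. The day 1 library was thus highest, at 4.88 (2.76 to 9.40) times sham, and on day 3 the ratio of 0.796 (0.312 to 1.97) had an interval that includes 1. Alternative settings, listed under processing below, gave day 3 ratios of 0.375 to 0.944. Day 7 stood at 2.65 (1.40 to 5.36) times sham. The day 1 UMIs came from 129 cells with at most 2 in any cell. In endothelial cells of the same libraries Dpysl5 lay between 0.0636 and 0.241 CPM, below its level in oligodendrocytes. With no limit on genes per cell the levels were 3.85, 10.7, 3.44 and 8.20 CPM, and the day 1 ratio was 2.79 (2.08 to 3.78).

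Crmp1 showed 6, 45, 12 and 20 UMIs in oligodendrocytes, or 1.06, 3.66, 2.20 and 2.77 CPM. Its day 1 level was 3.45 (1.47 to 9.89) times that of sham, which rested on 6 UMIs. With the level of blood immune cells subtracted, no ratio could be formed for day 1 or day 7. At least 1 library of each pair then had no positive Crmp1 level. In endothelial cells Crmp1 had 0.830, 2.17, 0.191 and 0.492 CPM, with day 1 also the highest, and the part of free RNA in either class was not tested. Dpysl3 held 1 to 15 UMIs per library, between 0.177 and 1.22 CPM. Dpysl4 held 2, 15, 1 and 0 UMIs, where the 0 of day 7 allows a level of up to 0.416 CPM. Levels this low were not read as expression.

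Markers of other cell types were read in the same oligodendrocytes. The summed neuroblast markers were at 2.83, 16.2, 1.47 and 4.02 CPM in sham and on days 1, 3 and 7, and the summed mature neuron markers at 47.3, 140, 19.4 and 38.4 CPM. On day 1 both lists and all of Dpysl2, Dpysl5 and Crmp1 stood above sham, whereas on day 3 both lists, and on day 7 the neuron list, stood below it. All 8 neuroblast markers had a UMI in sham and on day 1, 5 of 8 on day 3 and 7 of 8 on day 7, with Dcx at 0 on days 3 and 7. Of the 10 neuron markers, Slc17a6 was at 0 in sham and on days 3 and 7.

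Day 1 oligodendrocytes that held a Crmp1 UMI had 161 CPM of neuroblast markers from 36 UMIs, against 13.5 CPM in those without one. In sham, on day 3 and on day 7 the 6, 11 and 19 cells with a Crmp1 UMI had 0 neuroblast marker UMIs, which allows up to 63.0, 41.3 and 26.1 CPM, against 2.86, 1.49 and 4.09 CPM in the others. These limits lie below the 161 CPM of day 1 and above the levels of the cells without Crmp1. For Dpysl5 the values with and without a UMI were 10.4 and 2.70 CPM in sham, 24.8 and 15.7 on day 1, 0 and 1.48 on day 3, and 3.48 and 4.04 on day 7, where sham and day 7 rest on 1 marker UMI each and the 0 of day 3 allows up to 48.1 CPM.

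Markers of vascular cells and microglia were higher in the oligodendrocytes of every tMCAO library than in sham. Summed endothelial markers were at 130, 444, 304 and 304 CPM in sham and on days 1, 3 and 7, and summed pericyte markers at 18.1, 56.3, 76.1 and 39.1 CPM. Summed smooth muscle markers were at 60.9, 72.5, 168 and 140.4 CPM, and summed microglia markers at 18.8, 41.9, 48.0 and 37.7 CPM. All 23 markers of these 4 lists had a UMI in each library. The part of RNA from neurons, vascular cells or microglia in the oligodendrocyte values was not tested.

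In all, Dpysl2 gave 24255 of the 24586 family UMIs in oligodendrocytes, or 98.7%. The family sum was therefore 2.0, 2.14 and 1.98 times that of sham on days 1, 3 and 7.

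Progenitors, which divide and give rise to oligodendrocytes, carried a different mix. On day 1 the class held 152 cells, with Dpysl2 at 257 (214 to 306), Dpysl3 at 142 (110 to 180), Dpysl4 at 49.4 (31.6 to 73.5), Crmp1 at 39.1 (23.5 to 61.0) and Dpysl5 at 2.06 CPM from 1 UMI. Dpysl2 made up 52.5% of their family UMIs, Dpysl3 29.0%, Dpysl4 10.1% and Crmp1 7.98%. Oligodendrocytes of the same library held 3.34 (2.80 to 4.01) times as much Dpysl2 as progenitors, and 0.0086 times as much Dpysl3. Dpysl4 in oligodendrocytes was 0.025 times and Crmp1 0.094 times the progenitor level. Dpysl5 was 5.46 (0.964 to 217) times the progenitor level, and 6.29 (1.12 to 249.9) times with no limit on genes, in both cases against 1 UMI in progenitors. Dpysl2 was thus higher and Dpysl3, Dpysl4 and Crmp1 lower in the mature class on day 1.

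The other libraries held only 30, 9 and 30 progenitors under the limit of 3000 genes, so a comparison with sham was possible only with that limit lifted, which gave 103 cells in sham, 160 on day 1 and 51 on day 7. Dpysl2 was at 119 (95.3 to 147), 245 (207 to 289) and 232 (178 to 296) CPM in these libraries, and Dpysl3 at 234 (200.1 to 272), 128 (100.3 to 160) and 199 (149 to 259) CPM. These 2 members lay on opposite sides of sham on day 1, at 2.06 (1.56 to 2.72) times sham for Dpysl2 and 0.545 (0.410 to 0.720) times for Dpysl3. On day 7 the ratio was 1.94 (1.38 to 2.72) for Dpysl2 and 0.848 (0.612 to 1.16) for Dpysl3, whose interval includes 1. Dpysl4 at 22.2, 39.2 and 25.7 CPM and Crmp1 at 20.8, 35.8 and 33.1 CPM had intervals of the ratio that include 1. Of the 4 members with enough counts, 2 were higher and 1 lower on day 1, beside 8.97% of genes higher and 11.2% lower, and 1 was higher and 0 lower on day 7, beside 20.6% and 12.4%. The family sum was 1.13 (0.953 to 1.34) times sham on day 1 and 1.25 (1.01 to 1.54) times on day 7. In the same cells markers of committed precursors summed to 847, 802 and 934 CPM, and cycling markers to 323, 584 and 287 CPM. Oligodendrocyte markers were at 48.5, 123 and 62.5 CPM, endothelial markers at 371, 463 and 736 CPM and smooth muscle markers at 65.1, 52.8 and 647 CPM. Neuroblast markers were at 135.8, 156.6 and 209.6 CPM, and microglia markers at 73.4, 56.2 and 73.6 CPM. Oligodendrocyte, endothelial and neuroblast markers were thus above sham on both days, as Dpysl2 was, and smooth muscle markers on day 7. Microglia markers were below sham on day 1 and near it on day 7. Neuron markers were level, at 327, 327 and 331 CPM, and pericyte markers were lower than in sham, at 84.5, 51.1 and 14.7 CPM. The part of RNA from these cells in the progenitor values was not tested.

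Neuroblasts, the migrating precursors of neurons, carried all 5 members, and 2 of these, Dpysl2 and Dpysl3, lay on opposite sides of sham on days 1 and 3. Under the limit on genes there were 51 cells in sham, 198 on day 1 and 60 on day 3, with 47 on day 7. Dpysl2, with 62, 372 and 144 UMIs, was at 291 (223 to 373), 629 (567 to 696) and 626 (528 to 737) CPM in sham, day 1 and day 3. It was thus 2.16 (1.65 to 2.88) and 2.15 (1.59 to 2.94) times the sham level. Dpysl3, which encodes CRMP4, had 164, 216 and 98 UMIs and was at 770 (657 to 897), 365 (318 to 417) and 426 (346 to 519) CPM. It was 0.474 (0.385 to 0.585) and 0.553 (0.426 to 0.715) times the sham level, and its sham interval overlapped neither tMCAO interval. The leading member was therefore Dpysl3 in sham and Dpysl2 on days 1 and 3.

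Crmp1 in neuroblasts stood at 221 (162 to 293), 228 (191 to 270.1) and 343 (272 to 428) CPM in sham and on days 1 and 3. Its ratio to sham was 1.03 (0.737 to 1.47) on day 1 and 1.56 (1.07 to 2.28) on day 3. Dpysl5 stood at 98.6 (61.0 to 151), 113 (87.8 to 144) and 91.3 (56.5 to 139) CPM, with intervals that overlapped throughout. Dpysl4, which encodes CRMP3, had 4, 19 and 10 UMIs, or 18.8, 32.1 and 43.5 CPM, and its ratios of 1.71 (0.569 to 6.91) and 2.31 (0.668 to 10.1) could not be separated from 1 at this depth. Of the 5 members, 1 was higher and 1 lower on day 1, beside 12.8% and 23.6% of all genes, and on day 3 Dpysl2, Dpysl4 and Crmp1 made 3 higher, with Dpysl3 the 1 lower, beside 18.9% and 15%. The family sum was at 1399, 1368 and 1530 CPM, with ratios of 0.978 (0.855 to 1.12) and 1.09 (0.934 to 1.28), whose intervals include 1.

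The make-up of the family in neuroblasts differed more between libraries than its sum. Dpysl3 gave 55.0% of family UMIs in sham, 26.7% on day 1 and 27.8% on day 3, and Dpysl2 gave 20.8%, 46.0% and 40.9%. Crmp1 gave 15.8%, 16.7% and 22.4%, and Dpysl5 7.05%, 8.28% and 5.97%. At least 3 members were detected in the same cell in 17, 10 and 1 of 51 sham neuroblasts for 3, 4 and 5 members, and in 54, 21 and 1 of 198 on day 1. By contrast, among oligodendrocytes 87.5% to 93.1% of cells in a library held exactly 1 member.

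**Figure D4:**
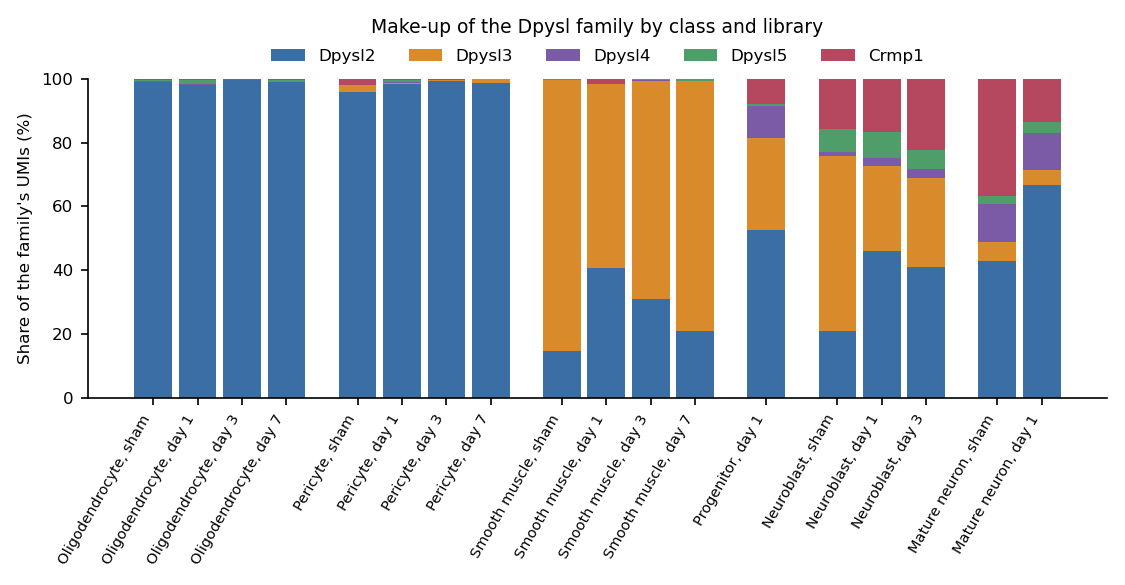
Percent of family UMIs (y axis, stacked to 100) given by each member, by library, in 6 classes. Dpysl3 makes up 55.0% of the neuroblast family UMIs in sham and 26.7% on day 1, whereas Dpysl2 makes up 98.7% over all oligodendrocytes.

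When the limit on genes was lifted, neuroblasts numbered 68, 220, 67 and 68 cells. Dpysl3 was then at 560 CPM in sham, 351 on day 1, 344 on day 3 and 543 on day 7. The ratios were 0.626 (0.525 to 0.748), 0.614 (0.485 to 0.774) and 0.969 (0.802 to 1.17), so that on day 7 the interval includes 1, and day 7 stood at 1.55 (1.29 to 1.86) times day 1. Dpysl2 was at 263, 591, 527 and 543 CPM, and day 7 stood at 2.07 (1.64 to 2.62) times sham. Dpysl5 on day 7 was at 154 CPM, or 2.43 (1.52 to 3.98) times the 63.3 CPM of sham, and Dpysl4 at 35.4 CPM, or 3.77 (1.18 to 15.7) times the 9.38 CPM of sham. With the limit lifted Dpysl2 and Dpysl4 were the 2 members higher on days 1 and 3, beside 6.6% and 15.5% of all genes, and Dpysl3 the 1 lower, beside 15.5% and 10.7%. Crmp1 on day 3 was thus no longer among the higher. On day 7, 3 of 5 were higher, beside 16.3% of all genes, and 0 lower, beside 12.7%. The family sum on day 7 was 1.39 (1.23 to 1.57) times sham.

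The neuroblast class also differed between libraries in other markers. Under the limit on genes, summed cycling markers were at 56.3, 604 and 4.35 CPM in sham and on days 1 and 3, and summed pericyte markers at 0, 93.0 and 126 CPM, at median depths of 4222, 2462 and 3749.5 UMIs. With the limit lifted, cycling markers were at 1125, 1190.0, 796 and 2209 CPM in sham and on days 1, 3 and 7, and pericyte markers at 37.5, 100.4, 101 and 149 CPM. Mature neuron markers under the limit were at 352, 331 and 504 CPM in sham and on days 1 and 3, highest on day 3 as Crmp1 was, and endothelial markers at 305, 167 and 78.2 CPM, highest in sham as Dpysl3 was. Smooth muscle markers were at 117, 45.6 and 86.9 CPM, and microglia markers at 32.9, 69.3 and 17.4 CPM. With the limit lifted, neuron markers were at 302, 319, 439 and 162 CPM and endothelial markers at 593, 230.1, 78.9 and 202 CPM in the 4 libraries. In sham 1 cell gave 15 of the Dpysl3 UMIs, or 9.15%. After thinning to 1000 UMIs, which left out 1, 7 and 0 cells, 44.0% of sham, 35.6% of day 1 and 35.0% of day 3 neuroblasts held a Dpysl3 UMI, and their intervals overlapped. The part of dividing cells, of RNA from other cells or of depth in the neuroblast values was not tested.

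Mature neurons could be compared between sham, with 57 cells, and day 1, with 309 cells, since days 3 and 7 held 11 and 6. Dpysl2 had 36 UMIs in sham and 633 on day 1, or 188 (132 to 260) and 600 (555 to 649) CPM, a ratio of 3.19 (2.28 to 4.60). Dpysl4 was at 52.2 (25.0 to 96.0) and 106 (87.5 to 128) CPM, a ratio of 2.03 (1.07 to 4.36). Crmp1 was not separated between them, at 162 (110.0 to 230) and 121 (101 to 144) CPM and a ratio of 0.750 (0.503 to 1.15). Dpysl3 at 26.1 and 40.8 CPM and Dpysl5 at 10.4 and 30.4 CPM had ratios whose intervals include 1. Of the 5 members 3 were higher on day 1, beside 23.2% of all genes, and 0 lower, beside 17.7%. Dpysl2 gave 42.9% of family UMIs in sham and 66.8% on day 1, and Crmp1 36.9% and 13.5%.

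The class itself differed between these libraries. The median cell had 10502 CPM of neuron markers in sham and 15576 CPM on day 1, and 13 of 57 sham cells passed the gate with exactly 3 markers, against 25 of 309 on day 1. Summed endothelial markers were at 219 and 333 CPM, microglia markers at 31.3 and 53.1 CPM, and smooth muscle markers at 157 and 59.8 CPM. Neuroblast markers were at 433 and 293 CPM, oligodendrocyte markers at 110 and 58.8 CPM and pericyte markers at 83.5 and 20.9 CPM, all lower on day 1. The part of these differences in the neuron values was not tested.

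The levels in mature neurons also depended on which cells were kept. With no limit on genes there were 131 neurons in sham, 864 on day 1 and 50 on day 7, with median depths of 7194, 8816 and 17899 UMIs. Dpysl2 was then at 342, 543 and 459 CPM, and its ratio to sham was 1.59 (1.44 to 1.76) on day 1 and 1.34 (1.17 to 1.54) on day 7. Dpysl4 was at 35.0, 70.2 and 52.4 CPM, with a day 1 ratio of 2.0 (1.48 to 2.78). Dpysl3 was at 39.7, 27.0 and 48.0 CPM, and its day 1 ratio of 0.679 (0.50 to 0.939) turned below 1. Of 4 members with enough counts on day 1, 2 were higher and 0 lower, beside 5.94% and 8.52% of all genes, and of 5 on day 7, 0 were higher or lower, beside 6.72% and 5.22%. Dpysl2 and Dpysl4 were the members higher on day 1 under both gates.

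Compared with mature neurons, neuroblasts held 29.5 (12.4 to 92.0) times as much Dpysl3 in sham, where neurons held 5 UMIs, and 8.95 (6.43 to 12.7) times as much on day 1. With no limit on genes these ratios were 14.1 (10.4 to 19.5) and 13 (10.9 to 15.6). Under either gate the intervals of sham and day 1 overlapped. On day 1 neuroblasts also held more Dpysl5, by 3.73 (2.41 to 5.88) times, and more Crmp1, by 1.88 (1.47 to 2.41) times. Dpysl4 went the other way, at 0.302 (0.175 to 0.495) times the neuron level. Dpysl4 was thus the 1 member of the 5 that was higher in mature neurons than in neuroblasts on day 1.

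Vascular smooth muscle, the contractile cells of arteries, was the class outside the neural lineages with the most Dpysl3. Dpysl3 had 856, 296, 636 and 1952 UMIs in 705, 738, 820 and 1593 cells of sham and days 1, 3 and 7. Its levels in that order were 179 (167 to 191), 97.0 (86.3 to 109), 136 (125 to 147) and 238 (227 to 249) CPM. No 2 of these intervals overlapped, and the order ran from day 1 through day 3 and sham to day 7. The ratios to sham were 0.542 (0.473 to 0.619), 0.757 (0.682 to 0.840) and 1.33 (1.22 to 1.44), and day 7 stood at 2.45 (2.17 to 2.78) times day 1. Among cells of 3000 to 6000 UMIs the levels were 182, 98.4, 126 and 231 CPM, and among those of 6000 to 12000 UMIs 179, 97.0, 145 and 242 CPM, in the same order.

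Dpysl2 in smooth muscle was at 30.8 (26.0 to 36.1), 68.8 (59.8 to 78.8), 61.6 (54.7 to 69.1) and 63.3 (58.0 to 69) CPM. It stood at 2.24 (1.80 to 2.78), 2.0 (1.64 to 2.46) and 2.06 (1.71 to 2.49) times sham, with the 3 tMCAO libraries overlapping. Alternative settings, listed under processing below, gave ratios of 1.10 to 2.48, 0.963 to 3.45 and 1.38 to 2.17. At matched depth of 3000 to 6000 UMIs the level was 46.2 (31.1 to 65.9) CPM in 130 sham cells, and the ratios were 1.52, 1.42 and 1.38. Among cells of 6000 to 12000 UMIs, which held 531 of the sham cells, the levels were 27.3 (22.5 to 32.9) CPM in sham and 67.2, 57.0 and 58.8 CPM on days 1, 3 and 7, so the size of the difference varied with depth. Dpysl3 gave 85.0% of family UMIs in sham and 57.5%, 68.4% and 78.5% on days 1, 3 and 7. Of 2 members with enough counts, Dpysl2 was higher and Dpysl3 lower on day 1, beside 4.82% and 6.02% of all genes. On days 3 and 7, 1 of 2 was higher, beside 1.78% and 12.7%, and 0 lower, beside 1.39% and 2.25%.

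A stricter mitochondrial limit altered this picture. With at most 5% mitochondrial UMIs only 88, 352, 476 and 256 smooth muscle cells were left, and the Dpysl3 ratios became 1.09, 1.59 and 2.55, so that days 1 and 3 no longer lay below sham. The Dpysl2 ratios became 1.10, 0.963 and 1.51. The median mitochondrial share was 6.58%, 5.10%, 4.78% and 6.74%. Summed endothelial markers in the class were at 176, 833, 327 and 491 CPM and microglia markers at 21.3, 42.6, 45.6 and 27.5 CPM, both above sham in each tMCAO library. Neuron markers were at 104, 197, 51.8 and 83.5 CPM. Pericyte markers were at 1154, 1151, 1195 and 718 CPM, lowest on day 7, where Dpysl3 was highest. The part of these in the smooth muscle values was not tested.

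**Figure D5:**
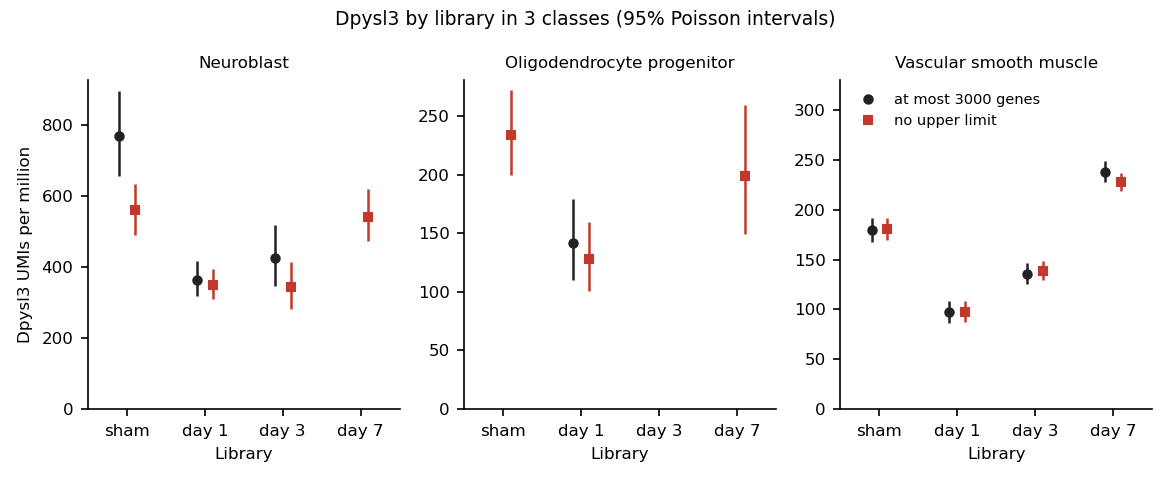
Dpysl3 level (y axis, CPM, Poisson 95% intervals) in neuroblasts, progenitors and vascular smooth muscle by library, for cells of at most 3000 genes and for cells with no upper limit. In smooth muscle the values run from 97.0 CPM on day 1 to 238 CPM on day 7, and in neuroblasts under the limit from 770 CPM in sham to 365 CPM on day 1.

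Pericytes, the mural cells of capillaries, carried the opposite member from their arterial neighbours. Smooth muscle held 36.1, 49.0, 67.3 and 44.0 times as much Dpysl3 as pericytes in sham and on days 1, 3 and 7. These ratios rest on 4, 2, 3 and 7 pericyte UMIs, with intervals of 14.1 to 133, 13.5 to 407, 22.9 to 327 and 21.3 to 110. Dpysl2 in smooth muscle was 0.129, 0.149, 0.115 and 0.129 times the pericyte level. Dpysl2 gave 98.6% of pericyte family UMIs, and the other members lay between 0 and 5.40 CPM. Pericyte Dpysl2, with 192, 466, 794 and 638 UMIs, was at 238 (205 to 274), 461 (420 to 505), 534 (497 to 572) and 492 (455 to 532) CPM. The ratios to sham were 1.94 (1.63 to 2.30), 2.24 (1.91 to 2.64) and 2.07 (1.76 to 2.45), which is 1 of 1 member higher on each day, beside 9.05%, 7.75% and 15.9% of all genes higher and 8.7%, 3.49% and 5.13% lower. On day 1 the level depended on depth. The 51 pericytes of 3000 to 6000 UMIs held 257 CPM, or 1.08 (0.759 to 1.51) times sham, whereas those of 1000 to 3000 UMIs held 505 CPM against 250 CPM in sham. Median depth was 2895 UMIs in sham and 1398 on day 1. Summed neuron markers were at 124, 364, 57.8 and 117 CPM, and microglia markers at 74.3, 134, 89.4 and 66.4 CPM in sham and on days 1, 3 and 7. Their part in the pericyte values was not tested.

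Endothelial cells, the largest class with 4609, 6503, 5459 and 8760 cells, had Dpysl2 at 70.9 (66.8 to 75.2), 106 (101 to 111), 90.2 (85.6 to 95.1) and 109 (104 to 113) CPM. The ratios were 1.5 (1.39 to 1.61), 1.27 (1.18 to 1.38) and 1.53 (1.43 to 1.65), which with 10 CPM added left 0 of 1 member past 1.5-fold on each day, beside 4.06%, 3.92% and 5.84% of all genes higher and 6.22%, 3.65% and 2.2% lower. Among cells of 1000 to 3000 UMIs the levels were 90.7, 124, 104 and 118 CPM. Among cells of 3000 to 6000 UMIs they were 65.1 (59.3 to 71.2), 96.4 (88.7 to 104.5), 88.0 (81.0 to 95.3) and 104.3 (98.2 to 110.8) CPM. There no tMCAO interval overlapped that of sham. Among cells of 6000 to 12000 UMIs they were 65.0 (57.8 to 72.9), 79.1 (70.3 to 88.6), 68.2 (59.5 to 77.7) and 89.2 (78.5 to 101) CPM. In that deepest group the intervals of days 1 and 3 overlapped that of sham. In the same endothelial cells neuron markers were at 77.6, 248, 25.9 and 68.2 CPM, pericyte markers at 78.9, 149, 83.7 and 78.3 CPM and microglia markers at 41.0, 70.4, 61.9 and 51.1 CPM. On day 1 these 3 lists stood above sham together with Dpysl2, and on day 7 the neuron and pericyte lists did not. The microglia list stood above sham on days 3 and 7 too. Smooth muscle markers were at 145, 132, 175 and 213 CPM, below sham on day 1 and above it on days 3 and 7. The part of RNA from these cells in the endothelial values was not tested. Microglia, the resident macrophages of the brain, had Dpysl2 at 126, 135, 151 and 104 CPM. Their ratios of 1.07, 1.19 and 0.827 had intervals that include 1, and 0 of 1 member was higher or lower, beside 18%, 12% and 13% of all genes higher and 25.7%, 10.5% and 8.91% lower.

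Astrocytes were few, with 67 cells in sham, 191 on day 1 and 75 on day 3. Dpysl2 was at 60.2 (32.1 to 103), 141 (110.4 to 177) and 161 (117 to 215) CPM, with ratios of 2.34 (1.29 to 4.60) and 2.67 (1.42 to 5.40). Dpysl3 had 0 UMIs in sham, which allows up to 13.9 CPM, and 25.1 and 28.6 CPM on days 1 and 3 from 13 and 8 UMIs. These are 1.80 and 2.06 times that limit, and the exact intervals of the ratios to sham began at 1.27 and 1.32. Both members counted were higher on each day, beside 17.9% and 17.5% of all genes higher and 19.3% and 21.5% lower. With no limit on genes Dpysl2 was at 61.5, 111, 83.3 and 81.9 CPM in sham and on days 1, 3 and 7, so that on day 3 it no longer passed 1.5-fold. Dpysl3 alone was then higher of the 2 on day 3 and 0 were lower, beside 19.2% and 22.1% of all genes. Under the limit on genes, summed neuron markers in astrocytes were at 171, 214 and 35.7 CPM in sham and on days 1 and 3, and summed pericyte markers at 32.4, 38.6 and 1240.0 CPM. Microglia markers were at 51.0, 129 and 129 CPM, above sham on both days as Dpysl2 was, and endothelial markers at 408, 558 and 411 CPM. With the limit lifted microglia markers were at 61.5, 130, 114 and 96.4 CPM in sham and on days 1, 3 and 7, and pericyte markers at 22.7, 28.1, 305 and 28.9 CPM. Pericyte markers were thus highest on day 3 under both gates, and the part of RNA from other cells in the astrocyte values was not tested.

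Partners of the CRMPs were read from 51 genes in 6 lists. These were ligands, receptors, kinases and phosphatases with the calpain genes Capn1 and Capn2, binding partners, tubulin with microtubule proteins, and growth cone proteins. In oligodendrocytes 4 of the 24 with enough counts were higher on day 1 and 2 lower, 0 of 23 were higher or lower on day 3, and 2 of 23 were higher and 1 lower on day 7. The shares over all genes given above for these days were 5.65%, 2.17% and 11.8% higher and 4.95%, 0.695% and 3.48% lower. Tubb3, a neuronal beta tubulin, was at 82.2 CPM in sham and 352 CPM on day 1, and at 139 CPM on day 7. Mapt, which encodes the microtubule protein tau, was at 1096 CPM in sham and 553 CPM on day 1. Tuba1a, an alpha tubulin, was at 2038 CPM in sham and 1171 CPM on day 7. The median log2 ratio of the listed genes was -0.15, 0.04 and 0.24 on days 1, 3 and 7, beside -0.03, 0.06 and 0.08 over all genes.

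In progenitors with no limit on genes, 7 of 37 partner genes were higher on day 1 and 2 lower, beside 8.97% and 11.2% of all genes, and 15 of 39 were higher and 2 lower on day 7, beside 20.6% and 12.4%. Sema3d, a secreted ligand, was at 98.4 CPM in sham, 276 CPM on day 1 and 224 CPM on day 7. Gap43, a growth cone protein, was at 118 CPM in sham and 233 CPM on day 1. In neuroblasts 1 of 36 was higher on day 1 and 7 lower, beside 12.8% and 23.6% of all genes, and 4 of 37 were higher and 1 lower on day 3, beside 18.9% and 15%. With no limit on genes the 7 lower on day 1 became 2 of 36, beside 15.5%, with 1 higher, beside 6.6%, and on day 3, 3 of 37 were higher and 1 lower, beside 15.5% and 10.7%. Mapt in neuroblasts was at 376 CPM in sham and 184 CPM on day 1, and Rock1, a kinase that acts on the actin cytoskeleton, at 150 and 64.2 CPM. In mature neurons 19 of 46 were higher on day 1 and 6 lower, beside 23.2% and 17.7% of all genes. Cdk5r1, the activator of Cdk5, was among the higher at 83.5 and 328 CPM. With no limit on genes those counts were 4 and 7 of 44, beside 5.94% and 8.52%.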

How the data were processed

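Single-cell RNA-seq was read from 4 deposited matrices of UMI counts, 1 per library. Per the file headers the authors made these counts with Cell Ranger 4.0.0, while the submitters' processing notes name Cell Ranger 3.0.1, Seurat 4.1.2 and GRCh38, although the gene IDs are of mouse. The values are raw counts, not normalized. Total UMIs per library ran from 69392755 to 104023002. Barcodes shared by a pair of libraries numbered 33 to 88 (0.281% to 0.562%) and were kept. Cells were filtered and gated, and UMIs summed per class and library, with scanpy 1.11.5, numpy 2.4.6 and scipy 1.17.1. With 1 library per group no test was run, and only exact intervals were computed. The intervals and the fold rule were run on simulated Poisson counts with set folds. These hold counting error only, the error the intervals assume, so the run does not bear on the spread between animals or cells. Doublets were kept in the reported values. Scrublet's automatic threshold marked only 17, 617, 3 and 2 cells, so the top-scoring 0.8% per 1000 cells were called as doublets for an alternative, a rule chosen after seeing the data. Members, gene lists and markers were chosen with earlier results of these data known. Named are all 5 members in each class with at least 50 cells and at most 3 partner genes per class, day and direction with the largest ratios past 1.5-fold, and the 5 genes most alike to each member. Protein sequences and promoters of Dpysl2, Dpysl3 and Dpysl4 were not used here.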

Additional observations from a re-analysis of the deposited data

How the results depend on the processing

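No paired analysis was possible because each group was 1 library. For 39 ratios to sham, 352 values under alternatives gave 318 within the reported counting interval and 34 outside it, and 77 could not be computed. For Crmp1 in oligodendrocytes on days 1 and 7 the subtraction of immune background left no positive level in at least 1 library. For the rest fewer than 50 cells or too few UMIs were left. The alternatives were no limit on genes per cell, at most 5% mitochondrial UMIs, 2 or 4 markers, called doublets left out, clusters in place of the gate, scaling without mitochondrial genes or by the median ratio of genes, the mean over cells, subtraction of immune background and, added after seeing the data, cells of 3000 to 6000 UMIs. The immune background was the pooled level of neutrophils, T or NK cells and B cells. The Dpysl2 ratio in oligodendrocytes stayed within 1.92 to 2.12, 2.02 to 2.19 and 1.80 to 2.15 on days 1, 3 and 7. The family sum there became 2.15, 2.02 and 2.16 at 3000 to 6000 UMIs, 2.03 on day 3 and 1.80 on day 7 under the median ratio, and 1.86 on day 7 without the limit on genes, which gave 1.14 in neuroblasts and 1.43 in mature neurons on day 1. In 12 of the 352 the ratio crossed 1. In 3 of these the reported interval excluded 1, all in smooth muscle with at most 5% mitochondrial UMIs, namely Dpysl3 on days 1 and 3 at 1.09 and 1.59 and Dpysl2 on day 3 at 0.963. In the other 9 it included 1, among them Dpysl3 in mature neurons on day 1 without the limit on genes, at 0.679. The cause was not tested. The share of oligodendrocytes with a Dpysl2 UMI was 19.4%, 33.2%, 33.4% and 34.8% thinned to 500 UMIs and 90.6%, 95.3%, 95.6% and 94.3% without thinning.

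Counts of partner genes depended on the rule. In oligodendrocytes on day 1 the 4 higher became 1 with 50 CPM added, at 2-fold or at 100 CPM and 7 with no low limit, and the 2 lower became 1, 0 at 2-fold and 1. On day 3 the 0 higher became 1 with 1 CPM added, and the 0 lower became 1 with 1 CPM added or by the median ratio. On day 7 the 2 higher became 6 with 1 CPM, 0 with 50 CPM, at 2-fold or by the median ratio and 1 at 100 CPM, and the 1 lower became 2 with 1 CPM or by the median ratio and 0 at 2-fold. In neuroblasts on day 1 the 1 higher became 2 with 1 CPM, no low limit or the median ratio and 0 at 2-fold, and the 7 lower became 3 with 50 CPM and 1 at 2-fold. On day 3 the 4 higher became 1 with 50 CPM or at 2-fold, 7 with no low limit and 2 at 100 CPM, and the 1 lower became 3 with 1 CPM and 2 with no low limit. In mature neurons on day 1 the 19 higher became 10 with 50 CPM, 9 at 2-fold and 12 at 100 CPM, and the 6 lower became 2 at 2-fold. With 1 library per group, no setting measures the spread between animals. A comparison of member proteins was not run.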

Other observations

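The genes most alike to each member were read over 38 combinations of class and library with at least 50 cells, among 13782 genes, by Pearson's r of log2(CPM + 10). These points share libraries, depth and the gate, so the values are descriptions. Crmp1 was followed most closely by Rnf165, Scrt1, Dcx, Actl6b and Smim18, with r from 0.98 to 0.97. Dpysl5 was followed by Scrt2 (0.97), Dlx1 (0.96), Dlx6os1 (0.95), 2210008F06Rik (0.94) and Dcx (0.94), of which Dlx1, Dlx6os1 and Dcx were markers of the neuroblast gate. Dpysl4 was followed by Lrp11, Psd, Dpf1, 2900011O08Rik and Lmtk3, with r from 0.97 to 0.96. Dpysl2 had no gene as close, with Igsf8 (0.84), Clip2 (0.83), Arl8a (0.82), Cep170 (0.82) and Dnajc7 (0.81) first. For Dpysl3 the first were Mn1 (0.86), Trp53i11 (0.84), 2900009J06Rik (0.82), Khdrbs3 (0.80) and H2afy2 (0.80).

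Among the members themselves Dpysl5 and Crmp1 had the highest Pearson's r, 0.90, followed by Dpysl4 and Crmp1 at 0.84. Dpysl2 had r of 0.46, 0.42, 0.37 and 0.12 with Dpysl5, Crmp1, Dpysl4 and Dpysl3. The order by rank was different, with rho highest for Dpysl2 and Crmp1 at 0.54, then Dpysl2 and Dpysl5, and Dpysl4 and Dpysl5, both at 0.52, and Dpysl5 and Crmp1 at 0.50. Ependymal cells, read with no limit on genes per cell in 120, 473, 71 and 136 cells of sham and days 1, 3 and 7, held Dpysl2 at 172 (155 to 190), 319 (305 to 334), 244 (212 to 278) and 258 (237 to 281) CPM. The day 1 interval lay above the other 3.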
